A study of Mus musculus with 8 samples.

Results

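A set of 799 open chromatin regions was called in 6 libraries of hippocampal microglia and missed by Ctrl replicates 1 and 2. The peaks of all 8 deposited lists were merged wherever they shared 1 bp, which gave 52251 union regions. A member had a peak in Ctrl replicates 3 and 4 and in FGR replicates 1 to 4, and none in Ctrl replicates 1 and 2. Members made up 1.53% of all union regions and 6.32% of the 12641 regions called in those 6 libraries, referred to here as common regions. Of the remaining common regions, 8856 were called in all 8 libraries, 268 were missed by Ctrl 1 alone and 2718 by Ctrl 2 alone. Because the calls chose the members, their number and their absence from both lists are a description and carry no test. The count rests on single lists: without the Ctrl 1 list 3531 regions fitted the remaining pattern, and without the Ctrl 3 list 1229 did. When every list was shortened to the length of the shortest, 106 regions had the pattern, of which 40 were among the 799.

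The libraries were ATAC-seq libraries, in which a transposase cuts accessible DNA and inserts sequencing adapters, so that open sites appear as local excesses of reads. They came from hippocampal microglia of mice 3 weeks after birth, with 4 libraries from control (Ctrl) animals and 4 from animals labelled FGR, for fetal growth restriction. Animals of both groups were heterozygous for the reporter Tmem119-tdTomato, which carries a red fluorescent protein at a microglial gene. The labels give neither sex nor the number of animals behind a library, and do not say whether libraries came from separate animals, so that p-values measure only the spread between these libraries. In bulk chromatin, fewer cells with an open site and less frequent cutting in each cell cannot be told apart.

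Microglia are the resident macrophages of the brain and depend on the lineage factor PU.1, which binds ETS motifs and opens much of the myeloid enhancer set. Open regions in such cells are of broadly different kinds: promoters, many of them CpG-rich and open in most cell types, and distal elements inside or between genes, which vary more between cell types and states. Peak callers report a region only when its pileup of reads exceeds the local background by a set margin, so weak sites pass in some libraries and fail in others of the same tissue.

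Upstream sequences of 5 member promoters are shown because they span the kinds of start site in the set: a microglial lectin gene, a gene of the Rac pathway, an interferon-induced gene and the CpG-rich promoters of a pair of housekeeping genes. Each run holds the 250 bases before the annotated start, 5′ to 3′ on the strand of the gene, from RefSeq on build GRCm38.p6 (the mm10 coordinates). Capitals mark matches on either strand to GGAAGT, the ETS and PU.1 core, CCAAT, the NF-Y motif, or GGGCGG, the SP and KLF motif. AP-1, CRE, NRF1 and IRF motifs were also searched and had no match in these 5 windows.
Siglech, chr7:55767934-55768183, plus strand: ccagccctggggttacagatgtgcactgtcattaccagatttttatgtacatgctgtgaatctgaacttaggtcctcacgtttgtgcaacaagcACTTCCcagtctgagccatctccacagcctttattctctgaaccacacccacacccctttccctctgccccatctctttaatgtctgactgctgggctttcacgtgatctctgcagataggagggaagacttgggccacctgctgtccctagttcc
Dock10, chr1:80758554-80758803, minus strand: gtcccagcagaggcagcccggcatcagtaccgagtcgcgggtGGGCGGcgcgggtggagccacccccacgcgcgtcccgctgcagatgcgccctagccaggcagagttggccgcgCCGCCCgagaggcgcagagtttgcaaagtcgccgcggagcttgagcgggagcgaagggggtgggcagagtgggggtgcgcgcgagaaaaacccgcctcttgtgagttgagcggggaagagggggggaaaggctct
Ifih1, chr2:62646256-62646505, minus strand: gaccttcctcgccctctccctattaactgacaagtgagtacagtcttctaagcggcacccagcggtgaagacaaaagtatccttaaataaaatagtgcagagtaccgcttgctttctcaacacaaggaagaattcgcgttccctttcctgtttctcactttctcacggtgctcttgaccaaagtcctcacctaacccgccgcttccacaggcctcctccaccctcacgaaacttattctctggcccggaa
Pon2, chr6:5298341-5298590, minus strand: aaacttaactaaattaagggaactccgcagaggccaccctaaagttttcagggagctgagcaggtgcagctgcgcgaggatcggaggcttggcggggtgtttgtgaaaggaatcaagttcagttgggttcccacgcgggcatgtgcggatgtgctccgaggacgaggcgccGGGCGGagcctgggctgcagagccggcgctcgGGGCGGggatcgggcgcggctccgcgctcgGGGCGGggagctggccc
Fis1, chr5:136953025-136953274, plus strand: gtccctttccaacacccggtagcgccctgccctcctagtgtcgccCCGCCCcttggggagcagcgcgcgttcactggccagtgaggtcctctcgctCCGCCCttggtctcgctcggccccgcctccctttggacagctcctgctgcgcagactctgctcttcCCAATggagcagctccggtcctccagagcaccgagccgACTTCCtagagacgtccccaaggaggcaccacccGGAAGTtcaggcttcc
Siglech encodes a sialic acid binding lectin of microglia, and its window had a GC content of 50.8% with 2 CpG sites and 1 ETS match. Dock10, a guanine nucleotide exchange factor for small GTPases, had 70.4% GC and 27 CpG sites. Ifih1 encodes MDA5, a sensor of viral double-stranded RNA, and its window had 50% GC, 11 CpG sites and no match to any searched motif. Pon2, a paraoxonase, and Fis1, a mitochondrial fission factor, had 65.6% and 66.8% GC. The member covered all 250 bases at Dock10, Pon2 and Fis1, 232 at Siglech and 200 at Ifih1.

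Over all start sites, 207 promoter windows, from 250 bases before to 50 bases after a start, were overlapped by a member. Their median GC content was 58.0% with 15 CpG sites, against 63.7% and 25 for the 7586 windows overlapped by regions called in all 8 libraries, and 53.0% and 7 for all windows searched. Member promoters therefore lay between the genome's promoters and the promoters of the shared regions in CpG content. GGGCGG stood in 57.0% of member windows, 73.2% of windows of the 8-library regions and 35.9% of all windows. CCAAT stood in 32.9%, 40.8% and 37.4%, and the NRF1 motif in 9.18%, 13.7% and 4.63%. GGAAGT was found in 30.4%, 30.0% and 23.7%. The AP-1 motif TGANTCA was found in 5.80%, 3.28% and 7.79%, the CRE TGACGTCA in 4.35%, 3.80% and 1.80%, and the IRF motif in 3.86%, 2.41% and 3.45%. All motifs were counted on both strands, and a match describes letters in a window and not a bound site.

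Ctrl replicates 1 and 2 stood apart from the other 6 libraries before any region was chosen. Their lists held 16111 and 10862 peaks, against 22705 to 29501 in the other 6, and their median peak widths were 566 and 522 bp against 353 to 386 bp. Background coverage, the lowest local background in a list in extended reads per base, was 4.53 in Ctrl 1 and 3.01 in Ctrl 2, against 3.52 to 6.05 in the others. The lowest summit pileup called was 14 reads in Ctrl 1 and 11 in Ctrl 2, and 12 to 16 in the others. At the regions called in all 8 libraries, the median summit pileup was 40 in Ctrl 1 and 26 in Ctrl 2, against 39 to 51. Background coverage and the calling floor of Ctrl 1 thus lay within the range of the other 6 libraries, whereas Ctrl 2 was below it in both. Both measures count extended reads, and whether reads were extended alike in all libraries is not stated. Read totals were not used, so sequencing depth was not compared. As a check of the labelled cells, marker genes with a peak at a gene end were counted in each library. Of 25 homeostatic microglia genes, 17 to 21 had one in each of the 6 libraries, and 17 had one in all 6. Ctrl 1 had one at 16 of the 25 and Ctrl 2 at 10. Counts per library of the 6 were 0 to 2 of 14 neuronal, 1 to 2 of 11 astrocyte and 1 to 3 of 12 oligodendrocyte lineage genes. They were 1 to 2 of 12 endothelial and mural and 1 to 3 of 9 border macrophage genes. For lymphocytes they were 0 to 3 of 10, and for monocytes and neutrophils 0 to 1 of 11. Ctrl 1 and 2 had 0 to 3 genes of each of these other lists.

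Members were among the weaker of the common regions in every library that called them. The median −log10 q of a member, taken from its strongest peak, was 6.63 in Ctrl 3, 6.43 in Ctrl 4, and 7.31, 7.18, 8.15 and 8.43 in FGR 1 to 4. The authors' fold of pileup over local background had medians of 3.72, 3.31, 4.02, 4.03, 3.95 and 3.87 in the same order, and the summit pileup had medians of 27, 32, 27, 27, 32 and 33 reads. These pileups were all above the lowest that Ctrl 1 and 2 called, and a −log10 q of 5 or more was reached by 70.7% to 85.4% of members. The peaks passed the callers' limits with a margin in most cases, and they were still low within their lists. To put libraries on a like scale, the common regions were ranked by −log10 q in each library and expressed as percentiles from 0 to 100. The median member then stood at 14.7 in Ctrl 3, 13.9 in Ctrl 4, and 19.2, 19.4, 19.2 and 21.0 in FGR 1 to 4, while regions called in all 8 libraries stood at 61.0 to 63.9. Regions missed by Ctrl 2 alone were intermediate, at 23.6 to 32.1, and those missed by Ctrl 1 alone were at 14.6 in Ctrl 3, where members were as high, and 20.9 to 23.8 elsewhere. Between 455 and 576 of the 799 members lay below percentile 25 of the common regions, and at most 1 lay in the top decile of any library.

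**Figure D1:**
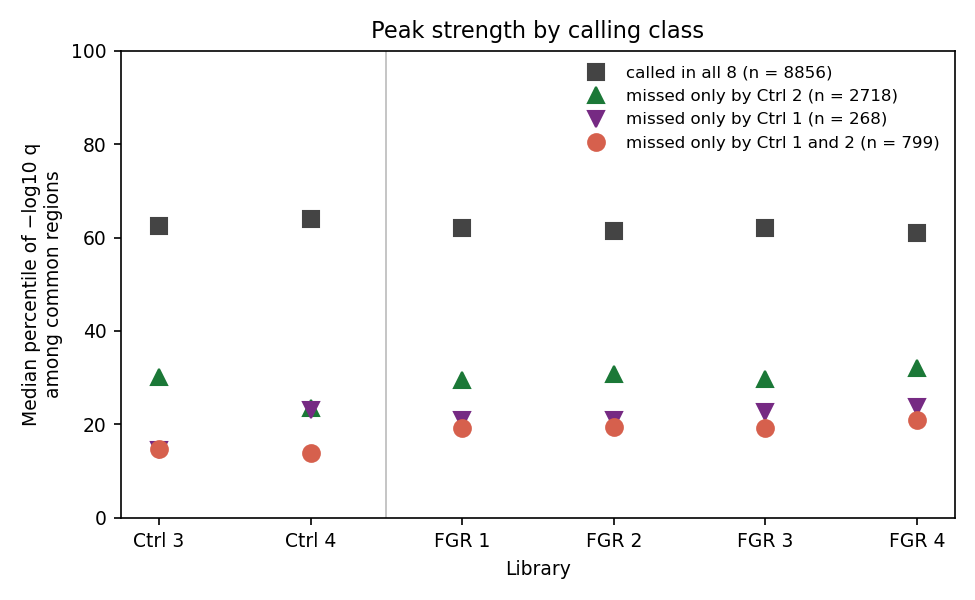
Median percentile of −log10 q among common regions (y axis, 0 to 100) in each of the 6 calling libraries (x axis) for members and the classes of regions they are compared with. Members sit between 13.9 and 21.0 in every library, and regions called in all 8 libraries between 61.0 and 63.9.

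Strength in the 6 calling libraries ordered the regions by whether Ctrl 1 and 2 missed them. With the common regions cut into deciles by their mean percentile over the 6 libraries, members were 25.2% of the weakest decile, 14.6% of the next and 10.6% of the third. The share then fell to 4.67% in the fifth decile, 0.633% in the seventh and 0 in the strongest. The weakest 2 deciles held 502 members, or 62.8%, and the upper 5 deciles held 28, or 3.5%. Most weak regions were not members: 28.1% of the weakest decile were called in all 8 libraries, and 99.8% of the strongest decile were.

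By position, members were mostly distal. A peak within 1 kb of either annotated end of a protein-coding gene was counted as at a gene end, since the gene table carries no strand and no exons. By that measure 202 members (25.3%) were at a gene end, 355 (44.4%) inside a gene and away from its ends, 237 (29.7%) between genes and 5 on 1 unplaced contig. Whether a member inside a gene was exonic or intronic was not analysed here. Among regions called in all 8 libraries, 68.2% were at a gene end, 18.9% inside a gene and 12.7% between genes. Gene-end shares were 46.6% for regions missed by Ctrl 1 alone and 35.9% for those missed by Ctrl 2 alone, and 25.9% over all union regions. The make-up of the members by position was thus near that of the union as a whole, and away from that of the 8-library regions.

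**Figure D2:**
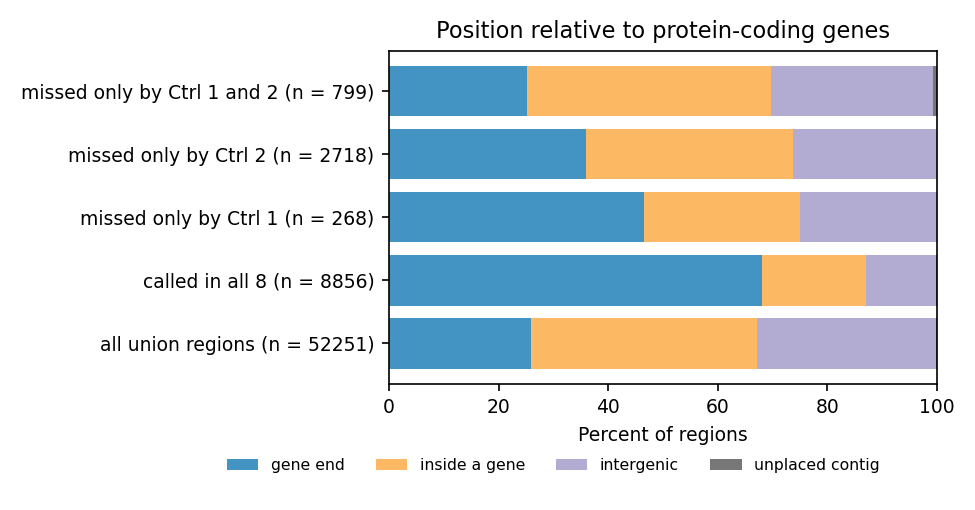
Stacked bars of the percent of regions (x axis) at a gene end, inside a gene, between genes and on unplaced contigs, for members, the comparison classes and all union regions (rows, with the number of regions). The gene-end part is 25.3% in members and 68.2% in regions called in all 8 libraries.

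Annotated start sites, taken from the RefSeq promoter table, covered 79.9% of protein-coding genes and none on chromosome 18. Of 772 members on chromosomes with start sites, 145 (18.8%) overlapped one and 168 (21.8%) lay within 1 kb, against 61.2% and 63.1% of the 8-library regions. Where a member lay within 2 kb of a start, its centre was more often displaced: 24.6% of 199 such members were centred over 500 bp away, against 6.43% of the 8-library regions. The 592 distal members were a median of 16301 bp from the nearest gene end, and 132 of them (22.3%) were over 50 kb away. Distal regions called in all 8 libraries were a median of 13390 bp away, and 17.5% lay over 50 kb.

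Members were narrow. The median region was 503 bp wide, with the 10th and 90th percentiles at 356 and 812 bp, while 8-library regions had a median of 935 bp and all union regions 346 bp. These union widths include the broad peaks of Ctrl 1 and 2 in the second class and not in the members. Within single libraries, where this does not enter, the median member peak was 287 bp in Ctrl 3, 312 bp in Ctrl 4, and 325, 308, 350 and 340 bp in FGR 1 to 4. The 8-library regions had peaks of 567 to 669 bp in the same libraries. Member peaks were also below the median peak of their own list, which was 353 to 386 bp. A second peak within the same member was rare and occurred in 54 of the 799, in at least 1 library.

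At a like mean percentile over the calling libraries, the share of members differed by position. Among common regions of the weakest decile, members were 205 of 625 distal regions, or 32.8% (95% Wilson interval 29.2% to 36.6%), and 113 of 638 gene-end regions, or 17.7% (14.9% to 20.9%). The intervals count regions and cover counting error only, since regions of 1 library are not replicates. In the second decile the shares were 22.5% and 6.17%, in the third 16.5% and 3.86%, and in the fifth 8.03% and 1.36%. Distal regions were thus missed by both Ctrl 1 and 2 more often than gene-end regions in each of the 5 weakest deciles. No gene-end member was found in the 4 strongest deciles, where distal shares were 1.36% or less. The mean behind the deciles takes in more FGR than Ctrl libraries. All FGR libraries ranked above both Ctrl libraries at 17.5% of intergenic and 16.0% of inside-gene common regions, against 7.21% at gene ends. Strength in Ctrl was thus not matched within a decile, and its part in the difference was not tested.

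**Figure D3:**
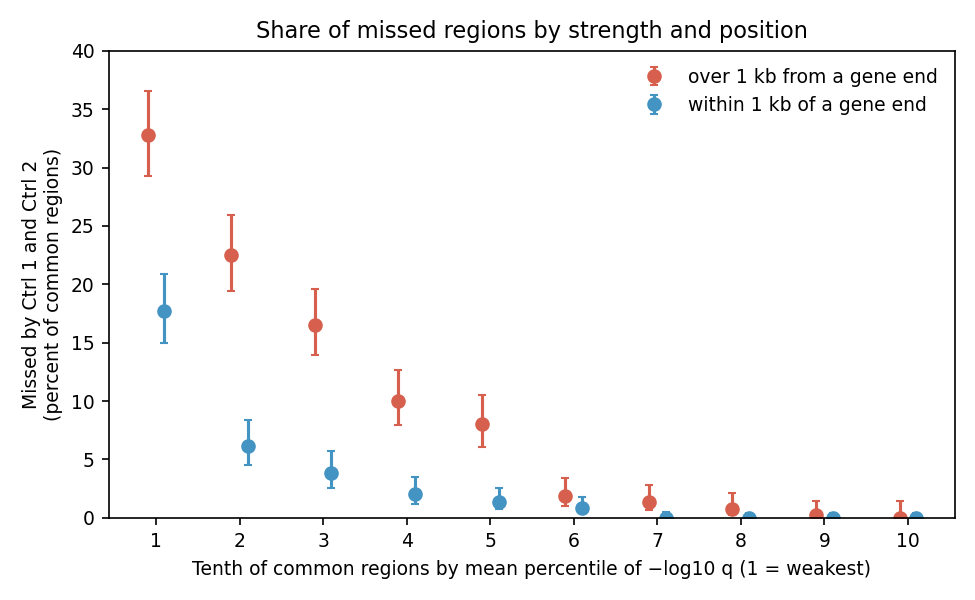
Percent of common regions missed by both Ctrl 1 and Ctrl 2 (y axis) by decile of mean percentile over the 6 calling libraries (x axis, 1 weakest to 10 strongest), for regions over 1 kb from a gene end (red) and within it (blue). Bars are 95% Wilson intervals for counting error, and red lies above blue in the 5 weakest deciles, at 32.8% against 17.7% in the first.

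Gene-end and distal members also differed across libraries. Gene-end members had median percentiles of 13.8 and 12.9 in Ctrl 3 and 4 and 12.6, 12.8, 13.8 and 11.4 in FGR 1 to 4, so the libraries overlapped. Members inside genes stood at 15.2 and 14.3 in the Ctrl libraries and at 21.9, 21.0, 22.4 and 23.4 in FGR. Members between genes stood at 14.4 and 13.5 in Ctrl and at 19.5, 22.8, 18.5 and 25.2 in FGR. In both distal classes all 4 FGR libraries were above both Ctrl libraries. In the 8-library regions, gene-end medians were 65.0 and 68.0 in Ctrl and 61.6 to 63.6 in FGR, and intergenic medians 55.7 and 54.0 in Ctrl and 57.3 to 61.0 in FGR, so that this tilt towards distal sites in the FGR ranks was present outside the members too.

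**Figure D4:**
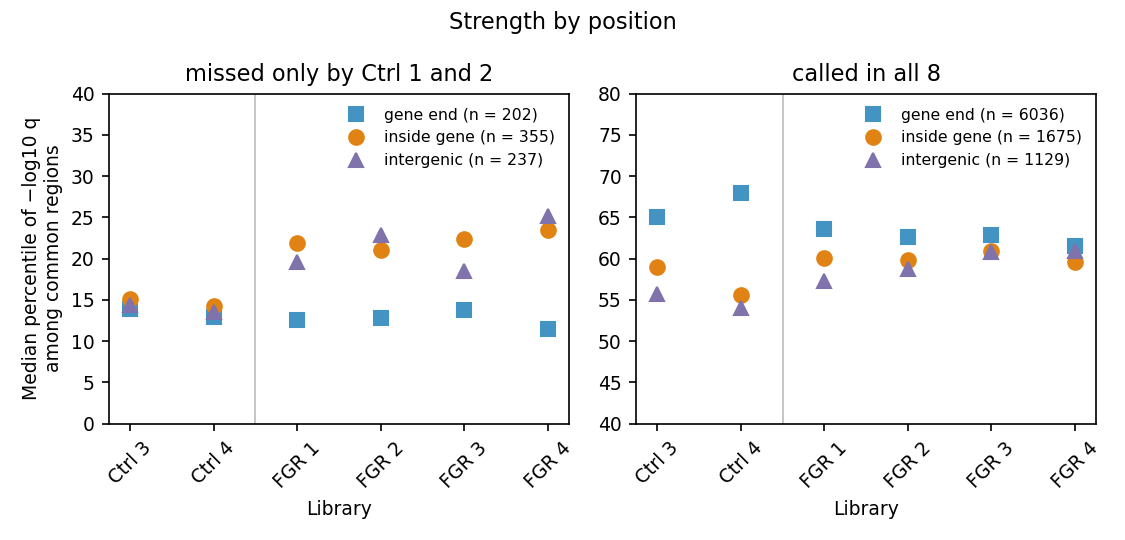
Median percentile of −log10 q among common regions (y axis) in each calling library (x axis) by position, for members (left panel, axis from 0 to 40) and regions called in all 8 libraries (right panel, axis from 40 to 80). Gene-end members stay between 11.4 and 13.8 in all 6 libraries, and intergenic members rank from 18.5 to 25.2 in FGR against 13.5 and 14.4 in Ctrl.

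Over all members, the median percentile was 19.7 ± 0.857 in FGR (SD, n = 4) and 14.3 ± 0.562 in Ctrl 3 and 4 (SD, n = 2), a difference of 5.43 with higher values in 4 of 4 FGR libraries. Enumerating all 15 assignments (exact permutation test, two-sided) gave p = 0.0667, the smallest it can give. Within replicates 3 and 4 alone the difference was 5.82, where the smallest possible p of the exact permutation test is 0.333. With the FGR pairs averaged the exact permutation p is also 0.333. This contrast is not independent of the way members were chosen. Ctrl 3 ranked below Ctrl 4 at 185 of the 268 regions missed by Ctrl 1 alone (69.0%) and at 1059 of the 2718 missed by Ctrl 2 alone (39.0%), against 4697 of 8856 regions called in all 8 (53.0%). Calls in Ctrl 1 thus moved with strength in Ctrl 3 and calls in Ctrl 2 with strength in Ctrl 4, so these Ctrl libraries cannot be taken as unrelated, and choosing regions that Ctrl 1 and 2 missed can favour low values in the other Ctrl libraries. Nothing is read from the difference for that reason. The 4 FGR lists also held 23327 to 29501 peaks against 22705 and 24195 in Ctrl 3 and 4, and the part of list length in the result was not tested.

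By region, all 4 FGR libraries ranked above both Ctrl libraries at 137 members (17.1%), beside 11.1% of all common regions, and below both at 29 (3.63%), beside 10.7%. By position the first count was 20 (9.90%) at gene ends, 66 (18.6%) inside genes and 51 (21.5%) between genes, beside 7.21%, 16.0% and 17.5% of common regions of the same position. The same limit on independence applies to these counts. In limma on percentiles with Benjamini-Hochberg adjustment, with FGR 1 and 3 and FGR 2 and 4 averaged as 1 sample each, 0 of 12641 common regions passed in either direction (0%), members included. At an unadjusted p under 0.05, 508 common regions (4.02%) were higher and 449 (3.55%) lower in FGR. Among the 799 members, 68 were higher and 4 lower at that level, and the limit on independence applies to these counts too. In simulated data, each region had independent noise in the 6 libraries at its SD over all 6. There limma called 0 of 200 regions shifted by 20 points and 0 of 200 shifted by 40. At that spread the design could not detect shifts of that size in single regions. The SD includes any difference between groups, and the likeness within FGR pairs was not simulated. Members had a median range over the 6 libraries of 32.2 points, against 32.8 for all common regions, members included. The median of their lowest percentile was 3.99, against 24.9 for all common regions. Members thus sat near the lower end of the scale, and like ranges need not mean like variability.

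The median width of member peaks was 331 ± 18.3 bp in FGR (SD, n = 4) and 299.5 ± 17.7 bp in Ctrl 3 and 4 (SD, n = 2), a difference of 31.25 bp with an exact two-sided permutation p of 0.2 over 6 separate libraries and 0.333, the smallest possible, with the FGR pairs averaged. The libraries overlapped, since FGR 2 at 308 bp was below Ctrl 4 at 312 bp. The difference was 18.75 bp without Ctrl 3, where the exact permutation p was 0.6.

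Misses at members were seldom a matter of a peak just outside the region. The nearest peak of Ctrl 1 or 2 lay within 200 bp of 8 members (1.0%), within 500 bp of 38 (4.76%) and within 1 kb of 73 (9.14%), at a median distance of 13047 bp. For comparison, the nearest other peak of Ctrl 3 lay within 1 kb of 96 members (12%), at a median of 9800 bp. The closest members were at Chd4, which encodes a helicase of the NuRD remodelling complex, 53 bp from a peak of Ctrl 1 or 2, at Slc2a4, the insulin-responsive glucose transporter gene, at 54 bp, and at the histone gene H2ac13 at 71 bp. On the other side of the rule, small overlaps that kept a region out were 24 bp at a region near Rnase10 and 43 bp near Dapp1. When peaks within 200 bp were merged, 807 regions had the pattern, 786 of them among the 799. Among the 11842 common regions that were not members, the stronger of the Ctrl 1 and 2 peaks had a −log10 q of at least 1.83, with a median of 9.90.

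The summits of member peaks fell close together in the 6 libraries. FGR 1 and 3 placed 78 summits (9.76%) at the same base, with a median distance of 15 bp, and FGR 2 and 4 placed 63 (7.88%) there, with a median of 24 bp. The other 13 pairs shared 0.751% to 2.38% of summits, with medians of 33 to 41 bp. At 8-library regions the summits of Ctrl 1 and 2 were displaced from those elsewhere, by a median of 136 to 139 bp. The displacement was exactly 200 bp at 106 regions (1.20%) between Ctrl 1 and Ctrl 3, against 55 to 74 between Ctrl 1 and the rest, and at 85 (0.960%) between Ctrl 2 and Ctrl 4, against 34 to 57 between Ctrl 2 and the rest. Ctrl 1 thus shared this offset most with Ctrl 3, and Ctrl 2 with Ctrl 4, in the same numbering as the FGR pairs. Whether reads were shifted or extended alike in all libraries is not stated in the labels, and the part of such settings in the misses of Ctrl 1 and 2 was not tested. FGR 1 and 3, and FGR 2 and 4, were therefore treated as 1 sample each in the test across regions.

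Members were spread across the genome. The median gap between neighbouring members on a chromosome was 1313340 bp, and 21 gaps were under 10 kb. Chromosomes 11, 5 and 2 held the most, with 67, 63 and 62, and as a share of common regions members ran from 3.84% on chromosome 9 to 7.62% on chromosome 16. The X chromosome had 12 members among 216 common regions and the Y chromosome 0 among 5. On unplaced contigs, 5 of 22 common regions (22.7%) were members. A member lay a median of 29180 bp from the nearest region called in all 8 libraries.

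A locus was the span of a gene extended by 20 kb either way. It held at least 1 member for 1083 of 21887 protein-coding genes, or 4.95%, and 677 members fell in a locus. Homeostatic microglia genes, which mark the resting state of these cells, had a member at 6 of 25: Csf1r, Entpd1, Golm1, P2ry12, P2ry13 and Siglech. Of that list 24 of 25 had a common region of any class, against 12368 of all genes (56.5%). The part of this in the share of genes with a member was not tested. Microglial transcription factor genes had a member at 2 of 17 and disease-associated microglia genes at 2 of 20. Genes of phagocytosis and Rac signalling had one at 3 of 24. These lists are short, some share genes and regions, and they were chosen with earlier results of these data known.

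The P2ry12 and P2ry13 genes encode purinergic receptors by which microglia sense nucleotides, and they share 1 member at chr3:59211625-59212132, 743 bp from the end of P2ry13. Its percentile was 21.1 in Ctrl 3, 40.3 in Ctrl 4 and 63.6, 69.5, 53.9 and 56.0 in FGR 1 to 4, on summit pileups of 34, 45, 43, 46, 46 and 47 reads. The FGR percentiles were all above both Ctrl values, while the pileups of Ctrl 4 and FGR overlapped, and a peak of Ctrl 1 or 2 lay 551 bp away. The member at Siglech, chr7:55767952-55768713, covers the start site whose upstream bases are printed above. It stood at 42.7 and 2.83 in Ctrl 3 and 4 and at 68.8, 35.1, 86.9 and 63.9 in FGR, with pileups of 40, 31, 47, 35, 67 and 53. The groups overlapped there through FGR 2, and the nearest peak of Ctrl 1 or 2 was 15743 bp away.

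Entpd1 encodes CD39, which breaks down extracellular ATP. Its member, inside the gene at chr19:40660777-40661492, stood at 14.2 and 5.38 in Ctrl 3 and 4 and at 28.0, 27.8, 14.3 and 31.6 in FGR. Golm1 encodes a Golgi membrane protein, and its member inside the gene at chr13:59672214-59672583 stood at 2.34 and 11.7 in Ctrl and 22.2, 42.7, 53.8 and 47.7 in FGR. In both the FGR values were above both Ctrl values, by a small step at Entpd1, with FGR 3 at 14.3 and Ctrl 3 at 14.2. Csf1r, the receptor for the growth factors CSF1 and IL-34 on which microglia survive, had 2 members in its locus, both outside the gene. The first, between Pdgfrb and Csf1r at chr18:61090681-61091398, stood at 1.31 and 3.83 in Ctrl and 22.4, 6.89, 24.8 and 11.5 in FGR. The second, 572 bp from the end of Hmgxb3, stood at 2.43 and 1.26 in Ctrl and 9.63, 3.59, 0.910 and 0.680 in FGR. The first separated the groups and the second did not.

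Irf8, an interferon regulatory factor needed for microglial development, had a member inside the gene at chr8:120750634-120751110, with percentiles of 5.82 and 16.3 in Ctrl 3 and 4 and 22.8, 7.75, 25.8 and 19.1 in FGR. Runx1, a haematopoietic transcription factor gene, had one at chr16:92801577-92802191, at 5.35 and 0.625 in Ctrl and 23.2, 1.72, 8.91 and 4.19 in FGR. Ctrl and FGR values overlapped at both. Among disease-associated genes, the tetraspanin gene Cd9 had a member inside the gene at 3.68 and 0.253 in Ctrl and 7.21, 11.7, 26.1 and 7.94 in FGR. Ctsz, which encodes the lysosomal protease cathepsin Z, had one 423 bp from its start at 27.2 and 9.25 in Ctrl and 10.7, 36.0, 5.46 and 12.8 in FGR. The Cd9 values did not overlap between groups and the Ctsz values did.

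Itgb2 encodes the beta chain of complement receptor 3, which engulfs tagged material, and is on both the phagocytosis and the complement list. Its member at chr10:77540680-77541358 stood at 12.2 and 2.65 in Ctrl 3 and 4 and at 28.7, 36.0, 45.8 and 48.8 in FGR, with pileups of 31 and 32 reads in Ctrl against 37, 40, 51 and 53. Neither the percentiles nor the pileups overlapped. Syk, a kinase downstream of phagocytic receptors, had a member inside the gene at 5.26 and 41.2 in Ctrl and 26.5, 40.5, 20.6 and 37.7 in FGR. The Dock10 member, which covers the start site printed above, was among the weakest, at 5.71 and 12.7 in Ctrl and 8.24, 5.37, 9.01 and 0.134 in FGR, on pileups of 16 to 27 reads. Over the 13 genes with a member on these microglial and phagocytosis lists, 6 of 13 distinct regions had all FGR libraries above both Ctrl libraries, beside 17.1% of all members and 11.1% of common regions, and 0 had all below, beside 3.63% and 10.7%. Over all lists the counts were 11 and 1 of 45 distinct regions, or 24.4% and 2.22%, beside the same shares. The lists are too short and too close to the choice of members for anything to be read from these counts. The limit on independence given for the members as a whole holds for each of these, and none passed limma.

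**Figure D5:**
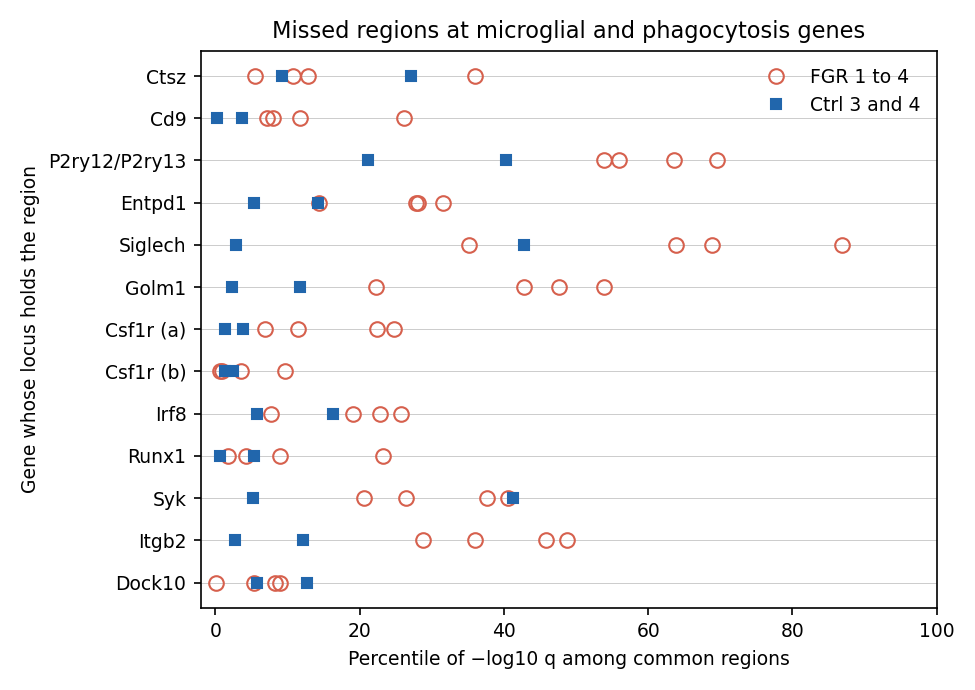
Percentile of −log10 q among common regions (x axis) in Ctrl 3 and 4 (filled squares) and FGR 1 to 4 (open circles) for members in the loci of microglial and phagocytosis genes (rows), with (a) and (b) the first and second Csf1r member in the text. At P2ry12 and P2ry13, Golm1 and Itgb2 all FGR points lie above both Ctrl points, and at Siglech, Syk and Dock10 the groups overlap.

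Of the other lists, immediate early genes, switched on within minutes of a stimulus, had a member at 5 of 20 (Atf3, Egr1, Fos, Fosb and Nr4a1), and insulin and growth factor signalling genes at 5 of 19 (Foxo3, Igf1r, Insr, Pik3r1 and Rptor). At Fos the member lay 4873 bp from the gene and stood at 47.9 and 27.0 in Ctrl 3 and 4 and 36.3, 21.3, 50.8 and 29.8 in FGR, which overlapped. At the insulin receptor gene Insr it lay inside the gene at 44.5 and 30.0 in Ctrl and 30.4, 57.3, 46.8 and 48.3 in FGR, also overlapping. Interferon response genes had a member at 4 of 19 (Bst2, Ifih1, Ifnar1 and Usp18). The Ifih1 member covered its start site, at 10.9 and 31.1 in Ctrl and 24.0, 25.4, 33.6 and 7.84 in FGR. At Usp18, which encodes a protease that removes the ubiquitin-like ISG15, the values of 74.5 and 38.0 in Ctrl were above 8.51, 13.6, 17.6 and 6.0 in FGR. Usp18 was the 1 listed region in which all FGR libraries were below both Ctrl libraries.

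Chromatin modifier genes had a member at 3 of 22 (Chd4, Dnmt3a and Kdm6b), hypoxia and glycolysis genes at 2 of 20, and complement, lysosome and glucocorticoid response genes at 1 each. Inflammatory genes had 0 of 21 and TGF-beta pathway genes 0 of 14. Markers of other cells had a member at 0 of 14 neuronal, 1 of 11 astrocyte, 2 of 12 oligodendrocyte lineage, 1 of 12 endothelial and mural, 2 of 11 monocyte and neutrophil and 1 of 10 lymphocyte genes. Border macrophage markers had one at 3 of 9, namely Cd74, Mrc1 and Stab1. Beside these shares stands 4.95% of all protein-coding genes. Several members counted for a marker lay nearer to another gene, such as that of Cd4 at 237 bp from Lag3.

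Single loci with several members were few, with at least 2 members in 75 loci and at least 3 in 9. The Vamp2 locus on chromosome 11 held 5 members among 8 common regions and overlaps the loci of Borcs6, Tmem107 and Per1, each with 3 of the same members. Per1 encodes a clock protein that responds to glucocorticoids. One of its members covers an internal start site at chr11:69099884-69100249, with pileups of 57 to 72 reads and percentiles of 15.5 and 15.7 in Ctrl and 11, 22.6, 1.58 and 7.34 in FGR. A second, at chr11:69096984-69097339, stood at 22.1 and 14.3 in Ctrl and 20.2, 28.5, 28.6 and 20.2 in FGR. The pileups in both were above the member medians, while the ranks were low to moderate. The homeobox gene Meis1 had 3 members within 6888 bp of its end, the closest of them 93398 bp from any Ctrl 1 or 2 peak, and the kinase gene Prkcd had 3.

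The strongest members were chosen by their lowest percentile over the 6 libraries. At gene ends they were near Gm13283, Cd274, Pon2, Tmem107, Zscan21, Cisd3, Lrrc24 and Fis1, with lowest percentiles from 36.1 down to 21.3. The Pon2 member at chr6:5298113-5298628 stood at 32.6 and 31.2 in Ctrl 3 and 4 and 40.7, 33.6, 35.0 and 61.2 in FGR, and lay 284 bp from a Ctrl 1 or 2 peak. The Cd274 member at chr19:29361676-29362092 lay 15 bp from the end of Cd274, which encodes the checkpoint ligand PD-L1, and covered the start of Plgrkt, a plasminogen receptor gene. It stood at 34.0 and 39.8 in Ctrl and 58.3, 53.2, 59.9 and 54.0 in FGR, so the groups did not overlap. The Fis1 member stood at 23.3 and 32.1 in Ctrl and 58.7, 21.3, 64.3 and 32.1 in FGR, where they did.

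Among distal members, the strongest was a 237 bp region at chr2:98665010-98665246, more than 1 Mb (1033338 bp) from the nearest gene end, that of Lrrc4c. Its percentiles were 88.4 and 95.8 in Ctrl 3 and 4 and 93.4, 90.8, 66.8 and 86.4 in FGR, on pileups of 74 to 109 reads. It was also the narrowest member, and a Ctrl 1 or 2 peak lay 1096 bp away. No list of artefact-prone mm10 regions was used here, so whether this region is one, and its pileup no measure of open chromatin, was not tested. The next were near Dhx9 (61.4 to 81.8 over the 6 libraries), inside Ppp1r9b (52.7 to 74.1), near Vmn2r87 (51.7 to 87.3) and inside the scavenger receptor gene Stab1 (50.3 to 65.5). The Vmn2r87 member was 1671061 bp from any Ctrl 1 or 2 peak. Ccdc12, Nipal3 and Tmem107 complete the 8, with lowest percentiles of 43.1, 39.6 and 37.7. The widest members were those inside Cep85 (1877 bp) and at the ends of Samd4 (1499 bp) and Cast (1309 bp), which were weak, with lowest percentiles of 0.103, 0.0237 and 6.97. The narrowest after the Lrrc4c region were near Zfp36 (263 bp) and inside Lrch1 (278 bp).

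Hairpins of 4 microRNA genes were overlapped by a member, namely Mir760, Mir5122, Mir7045 and Mir7687. The Mir7045 hairpin lies in the Chd4 member at chr6:125096606-125097283, which stood at 2.54 and 11.8 in Ctrl 3 and 4 and 14.5, 3.19, 12.4 and 1.3 in FGR. Dnmt3a, a DNA methyltransferase gene, had a member inside the gene at 11 and 0.886 in Ctrl and 1.38, 4.05, 2.07 and 4.92 in FGR. Kdm6b, a demethylase gene for histone H3 lysine 27, had one at 41.6 and 17.0 in Ctrl and 58.2, 51.5, 55.3 and 31.5 in FGR. Ctrl and FGR values overlapped at all 3.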

How the data were processed

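The deposited data were 8 ATAC-seq peak lists, 1 per library. Per the submitters' processing notes, the tools were, with no role or order given, MACS2 2.2.7.1, Bowtie2 2.4.5, DiffBind 3.12.0, Trim Galore 0.6.5 and SAMtools 1.3.1, with build mm10. The sources used here give no settings and do not mention duplicate removal, read shifting or removal of artefact-prone regions. The authors' lists give a display score, which was not used, a fold ratio of summit pileup over background, −log10 p and −log10 q values, and the summit position as a deposited offset in bp. Read totals were not used here. Pileups were recovered from the deposited fold and −log10 p as whole numbers for 100% of peaks within a tolerance of 0.001, and background coverage was taken as the lowest local background of a list. Regions, ranks and positions were computed with Python 3.11.15, numpy 2.4.6, pandas 2.3.3 and scipy 1.17.1, and plotted with matplotlib 3.10.9. An exact permutation test served for values given once per library, and limma 3.58.1 (R 4.3.3, trend) for regions, with Benjamini-Hochberg adjustment at 0.05. Strength percentiles used the strongest peak per region.

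The members and the 21 gene lists (329 of 331 symbols matched) were chosen with earlier results of these data known. The planned contrast of FGR with Ctrl 3 and 4 was meant to be independent of the rule and turned out not to be. Named genes were the strongest 8 gene-end and 8 distal members, the members on the microglial, phagocytosis and glucocorticoid lists, the 3 widest and 3 narrowest, those nearest to the rule's edge and the 5 loci with most members. Fos, Insr, Ifih1, Usp18, Chd4, Dnmt3a, Kdm6b and the other listed genes outside that rule were chosen after their values were seen. On simulated data the pattern of calls was recovered for 300 of 300 regions and the pileup for 3000 of 3000 peaks. With the spread shrunk to 0.1 of its value, limma called 198 of 200 regions shifted by 20 points. Alternatives covered merging, overlap, stricter calls, equal list length, other ranks, left-out libraries and a replicate block.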

Additional observations from a re-analysis of the deposited data

Results flagged for a closer look

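Of 39 groups of 4 FGR libraries checked, 4 had a library far from the other 3 (Dixon's test at 95%, which flags about 1 in 20 groups by chance). The median percentile of members was 21.0 in FGR 4, against 19.2 to 19.4 in the other 3 FGR libraries. The member near Vmn2r87 stood at 87.3 in FGR 1, against 77.9 to 79.3. The intergenic member near Tmem107 at chr11:69078701-69079194 stood at 37.7 in FGR 3, against 78.6 to 83.7, and Ctrl 3 and 4 were at 51.2 and 38.3. The member inside Lrch1 stood at 56.5 in FGR 2, against 25.1 to 29.6.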

How the results depend on the processing

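Merging peaks within 200 bp gave 807 regions, requiring a peak to cover most of a region 549 and a −log10 q of at least 5 gave 827, of which 786, 360 and 300 were among the 799. With lists of equal length there were 106, with a gene-end share of 17.9% and a median width of 352 bp. The median width, 320 bp in the main setting, was 359 bp at a −log10 q of at least 5. The gene-end share, 25.3%, was 30.7% with ends taken to 2 kb. Leaving out 1 library gave 878 to 3531 regions, a gene-end share of 22.1% to 33.4% and a median width of 312 to 372 bp. The FGR minus Ctrl difference in median percentile stayed between 5.01 and 6.08 under every alternative run, and that in width between 18.75 and 45.5 bp. The limma count of regions higher in FGR was 1 with 6 separate libraries and 1 with normal scores of the ranks, and 0 to 1 when 1 library was left out. The 1 was reached without Ctrl 4, and members were 0 in every setting. The count of regions lower in FGR was 0 throughout. Genes with a member in the locus numbered 1835 at 50 kb, against 1083. Leaving out FGR 1 and 2 was chosen after seeing the data.

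In the ranks, replicate numbers 3 and 4 showed no pairing of Ctrl with FGR. The Ctrl 3 minus Ctrl 4 and FGR 3 minus FGR 4 differences correlated at r = -0.0376 across common regions. Replicates 1 and 2 did not enter this check, and whether libraries of the same number shared a preparation was not tested. With the replicate block, limma on 6 separate libraries called 0 regions higher and 0 lower. At an unadjusted p under 0.05 it gave 580 and 439. Without the block, the 6 separate libraries gave 816 and 683, and the fit with averaged FGR pairs gave 508 and 449. FGR 1 and 2 have no Ctrl library of their number in the block fit, so its difference rests on replicates 3 and 4. Only 2 Ctrl libraries entered these tests, read totals were unknown, and a rank hides changes shared by all regions.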
